A study of Mus musculus with 16 samples.

Results

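The genes described here encode the subunits of the AMPA and NMDA receptors, the ion channels that carry fast glutamate signaling in cortex, and they were followed in mouse somatosensory cortex with and without sleep disruption (SD). They were chosen by name from the deposited tables. The 4 AMPA receptor genes are Gria1, Gria2, Gria3 and Gria4, and the 6 NMDA receptor genes are Grin1, Grin2a, Grin2b, Grin2c, Grin2d and Grin3a, which makes 10 of the 24421 genes in the tables. All 10 had reads in each of the 12 libraries, from 645 to 61227 reads, so none was lost to a filter on low values.

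Cortex was collected at ZT4, zeitgeber time 4, that is 4 h after lights on. The 4 groups, with 3 libraries each, were wild-type C57BL/6 mice left undisturbed (WT control), wild-type mice after SD by gentle handling over the 8 h from ZT20 to ZT4 (WT SD), undisturbed AcPb-/- mice (AcPb-/- control) and AcPb-/- mice after the same SD (AcPb-/- SD). AcPb is the brain isoform of the interleukin-1 receptor accessory protein. The mice were 2 to 3 months old, lived in 12 h of light and 12 h of dark, and were homozygous offspring of lines kept for 5 to 7 generations. The labels name males as the founders of both lines and do not give the sex of the offspring, and the study describes its wild-type mice as male. The labels list 16 mice, and the 4 without a column in the tables were not analysed here. AcPb is spliced from the gene Il1rap and gene counts pool its isoforms, so the level of Il1rap, 1476 to 1647 normalized counts in the 6 control libraries and 1729 to 2062 in the 6 SD libraries, does not check the genotype labels.

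Reads on genes numbered 32870075 to 41615582 in WT controls and 58770286 to 71775967 in WT SD, and AcPb-/- libraries had 26504840 to 35683409 undisturbed and 63413467 to 71857505 after SD, so depth was higher in every SD library. WT control replicates 02 and 03 and AcPb-/- control replicates 04 and 05 held 25352 to 39358 reads of Xist, the RNA of the inactive X chromosome, and 0 to 2 reads over 4 Y-linked genes, which for the wild-type libraries goes against the sex given. The other 8 libraries held 5 to 13 Xist reads and at least 5105 Y-linked reads. All 4 libraries with Xist were controls, and the subunit results that passed the SD test are therefore also given without them. Markers of cortical neurons and glia had reads in every library, while Ttr, the transthyretin gene of choroid plexus, stood at 16186 normalized counts in AcPb-/- SD replicate 04 against 10.6 to 283 in the other libraries.

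AMPA receptors are tetramers of the Gria products and open within a very short time of glutamate binding. The Gria2 subunit, after its RNA has been edited at a codon of the pore, keeps calcium out of the channel, so receptors rich in Gria1 relative to Gria2 are known to pass more calcium. NMDA receptors need the Grin1 subunit together with Grin2 or Grin3 subunits, admit calcium, and are blocked by magnesium at rest. Grin2b is known to predominate early in development and Grin2a later, and their ratio shapes how long the channel stays open. Both receptor classes are studied in sleep research because synaptic strength in cortex has been proposed to rise with time awake.

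The coding sequence around the narrowest part of the pore is shown because it is where the Gria subunits differ functionally after editing and because it shows how close the sequences are that the reads had to tell apart. Sequences are from GENCODE M21 transcripts on GRCm38 (mm10), 5′ to 3′ on the coding strand, with the codon of the pore site in capitals.
Gria1: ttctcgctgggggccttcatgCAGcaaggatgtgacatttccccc
Gria2: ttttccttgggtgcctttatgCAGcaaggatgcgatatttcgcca
Gria3: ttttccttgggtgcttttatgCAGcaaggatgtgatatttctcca
Gria4: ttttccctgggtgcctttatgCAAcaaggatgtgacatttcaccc
Grin1: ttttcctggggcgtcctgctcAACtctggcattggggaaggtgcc
Grin2a: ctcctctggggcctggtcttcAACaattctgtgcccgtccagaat

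The capital codon reads for glutamine in the 4 Gria genes and for asparagine in Grin1 and Grin2a. In Gria2 the codon lies at chr3:80706911-80706913 on the minus strand, in exon 11 of 16, and editing changes it in the RNA. Gene counts cannot show editing, so the calcium permeability of the receptors was not measured here. In Gria1 the codon lies at chr11:57243094-57243096 on the plus strand, also in exon 11 of 16. In Grin2a it lies at chr16:9653561-9653563 on the minus strand. The windows of 45 bases shared 36 to 42 bases between pairs of Gria genes and 35 or 36 between pairs of Grin2a, Grin2c and Grin2d, but 8 to 20 between a Gria gene and Grin1 or one of these 3. Over whole genes, stretches of 100 bases shared with another gene made up 10.7% of Grin2a, all with Gm7328, and 0.08% of Gria2. In the other 8 genes the share was 0.

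The loci differ in ways that bear on the counts. Gria3 (X:41400854-41678601) is on the X chromosome. Grin1 (chr2:25291181-25319187) shares 1307 bases of exon with Grin1os on the opposite strand, which had 470 to 1255 reads per library, and Grin2d (chr7:45831883-45878378) shares 643 bases with Gm45441. The strand setting of the read counting is not given in the sources used here, so reads in these overlaps cannot be assigned with certainty. The longest transcripts ranged in GC content from 36.8% in Gria2 to 62.1% in Grin2c and 65.0% in Grin2d.

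To compare genes with each other, levels were expressed as RPKM, which divides a gene's reads by the length of all its annotated exons in kb and by the library's total of reads on genes. In WT controls Gria1 was at 56.6 ± 6.30 (s.d., n = 3) and Gria2, the subunit that limits calcium entry, at 55.2 ± 3.44, and these 2 overlapped. Grin1, the subunit that every NMDA receptor contains, followed at 47.1 ± 1.79, then Gria3 at 34.8 ± 1.31, Gria4 at 27.6 ± 2.93 and Grin2c at 13.5 ± 0.446, each below the range of the gene before it. Grin2b at 4.40 ± 0.841, Grin3a at 3.58 ± 0.524, Grin2d at 2.98 ± 0.237 and Grin2a at 2.56 ± 0.188 came last, and neighbours in this order overlapped. The 4 AMPA subunits and Grin1 were thus the abundant members per length, and the Grin2 and Grin3a genes the scarce ones. Within the Grin2 genes the order rests on the annotated length. All exons cover 24842 bases in Grin2b and 17933 in Grin2a, against 5037 in Grin2c. In normalized counts of WT controls Grin2b, at 5120, was above Grin2c, at 3185, and Grin2a, at 2148, was below it.

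The order depended on the length used: all exons of Grin1 cover 9700 bases and its longest transcript 4276, against 6043 and 5546 for Gria1. With the longest annotated transcript as the length, a choice made after seeing the data, Grin1 was highest at 107 ± 4.06 and Gria2 next at 82.7 ± 5.15, while Gria1 came after Gria3 at 61.6 ± 6.86. In WT SD libraries, per kb of all exons, Gria1 reached 68.1 ± 1.58 and no longer overlapped Gria2 at 55.9 ± 0.998. Shares of the total within each class were taken per kb of all exons. Gria1 made up 32.5 ± 3.83% of the AMPA subunits in WT controls and 36.8 ± 0.755% after SD. Grin1 made up 63.5 ± 0.378% and 64.2 ± 3.50% of the NMDA subunits. With the longest transcript the Gria1 shares were 25.5 ± 3.23% and 29.0 ± 0.647%.

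**Figure D1:**
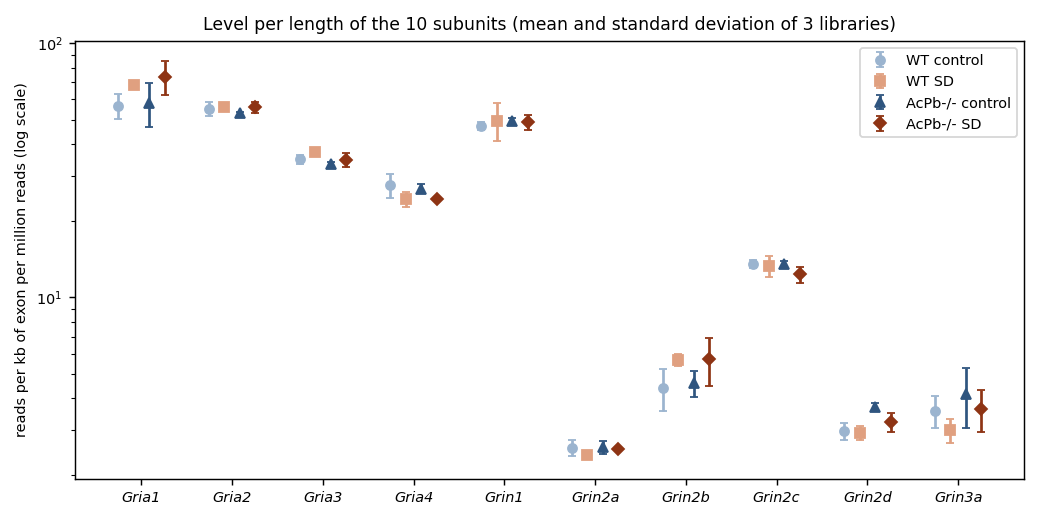
Level of each subunit gene in RPKM, reads scaled to exon length and library total, on a log axis, for the 4 groups. Symbols are means of 3 libraries and bars are standard deviations. Gria1, Gria2 and Grin1 lie between 47.1 and 73.7 in all groups and Grin2a between 2.40 and 2.57.

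The question of the main comparison was which subunit transcripts differ in cortex after SD. In wild-type mice 2 of the 10 genes passed an adjusted p of 0.05 (limma, Benjamini-Hochberg over 20417 genes), Gria1 and Grin2b, both higher after SD. Of all genes tested, 25.4% passed, 13.2% higher and 12.2% lower, and 35.2% of those with a mean of at least 100 normalized counts, so the share among the subunits, 20%, was not above the background. An unadjusted p under 0.05 was reached by 3 of the 10, against 37.3% of all genes. Over both genotypes Gria1, Grin2b and Gria3 passed, 3 of 10 against 41.5% of 20978 genes. The median log2 fold change of the 10 genes was 0.043 in wild-type mice and 0.022 over both genotypes, beside -0.00389 and 0.00288 over all genes. In bulk tissue, fewer cells of a type and less RNA per cell cannot be told apart.

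Gria1 encodes the AMPA subunit that is inserted into synapses with activity. It stood at 17948, 15925 and 14080.3 normalized counts in WT controls and at 19659, 20622 and 19284 after SD. Controls of the AcPb-/- line held 19746, 16062 and 13401 and the SD libraries 22196, 17536 and 24331. All 3 WT SD libraries were above all 3 WT controls, while in AcPb-/- mice 1 SD library lay below the highest control. The log2 fold change was 0.32 ± 0.085 (SE, adjusted p = 0.0211) in wild-type mice, a 1.25-fold level, and 0.39 ± 0.16 (adjusted p = 0.0984) in AcPb-/- mice, which did not pass. Over both genotypes it was 0.35 ± 0.099 (adjusted p = 0.0118). The wild-type call was lost without WT control 02 or 03 or WT SD 01 or 02, at 0.23 to 0.33 (adjusted p from 0.0651 to 0.0892), and the AcPb-/- estimate passed without control 03 (0.53, adjusted p = 0.0254) or SD 03 (0.52, adjusted p = 0.0391).

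The controls with Xist reads were the low ones. In the 4 of them Gria1 was at 13401 to 16062, and in the 2 controls without Xist at 17948 and 19746, which is inside the range of the SD libraries, 17536 to 24331. Without the 4 libraries the difference over both genotypes was 0.12 (adjusted p = 0.509). A term for them gave the same 0.12 (adjusted p = 0.441) by construction, so it is not a separate check. All 4 are controls, split evenly over the genotypes. The part of these 4 libraries in the result was not tested further, and sex cannot be told apart from other differences between the libraries.

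Gria2 had the highest counts of the 10. It was at 38141, 39697 and 42404 in WT controls and 41263, 43118.5 and 41259 after SD, and at 37956.5, 38903 and 38314 against 43994, 38569 and 42380.3 in AcPb-/- mice. The groups overlapped in both genotypes. The log2 fold changes were 0.06 ± 0.070 (adjusted p = 0.559) and 0.12 ± 0.074 (adjusted p = 0.279), with 95% intervals of -0.09 to 0.22 and -0.05 to 0.29.

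Gria3, the X-linked AMPA subunit, had a coefficient of variation of at most 2.66% in 3 groups and of 8.57% in AcPb-/- SD. In wild-type mice controls were at 15569.9, 16275 and 16286 and SD libraries at 17491, 17560.4 and 17873, and in AcPb-/- mice controls were at 15073, 15812 and 15141 and SD libraries at 17698, 14913 and 16651. The wild-type groups did not overlap, but the difference, 0.14 ± 0.057, did not pass (adjusted p = 0.106). Gria1 and Gria3 were the 2 of 10 subunits whose wild-type groups did not overlap, against 40.2% of all genes. Over both genotypes Gria3 passed narrowly at 0.12 ± 0.044 (adjusted p = 0.0489), and it no longer passed when any 1 library other than AcPb-/- SD 03 was left out (adjusted p from 0.0556 to 0.115). Without the Xist libraries the estimate was 0.15 (adjusted p = 0.171), and with each library's trend of counts with GC content and length removed it was 0.02 (adjusted p = 0.678).

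Gria4, a subunit prominent in interneurons and thalamus, lay in the other direction. WT controls were at 7430.5, 7912 and 8995 and SD libraries at 6919.9, 7430.0 and 7768, and AcPb-/- controls at 7503, 8076 and 8059 against 7570.0, 7299.6 and 7206. The groups overlapped in both genotypes. No comparison passed, with log2 fold changes of -0.14 (adjusted p = 0.241) and -0.10 (adjusted p = 0.254), and -0.12 ± 0.050 over both (adjusted p = 0.0780). Over both genotypes it passed without WT control 01 (-0.15, adjusted p = 0.0281) or WT SD 04 (-0.14, adjusted p = 0.0489).

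**Figure D2:**
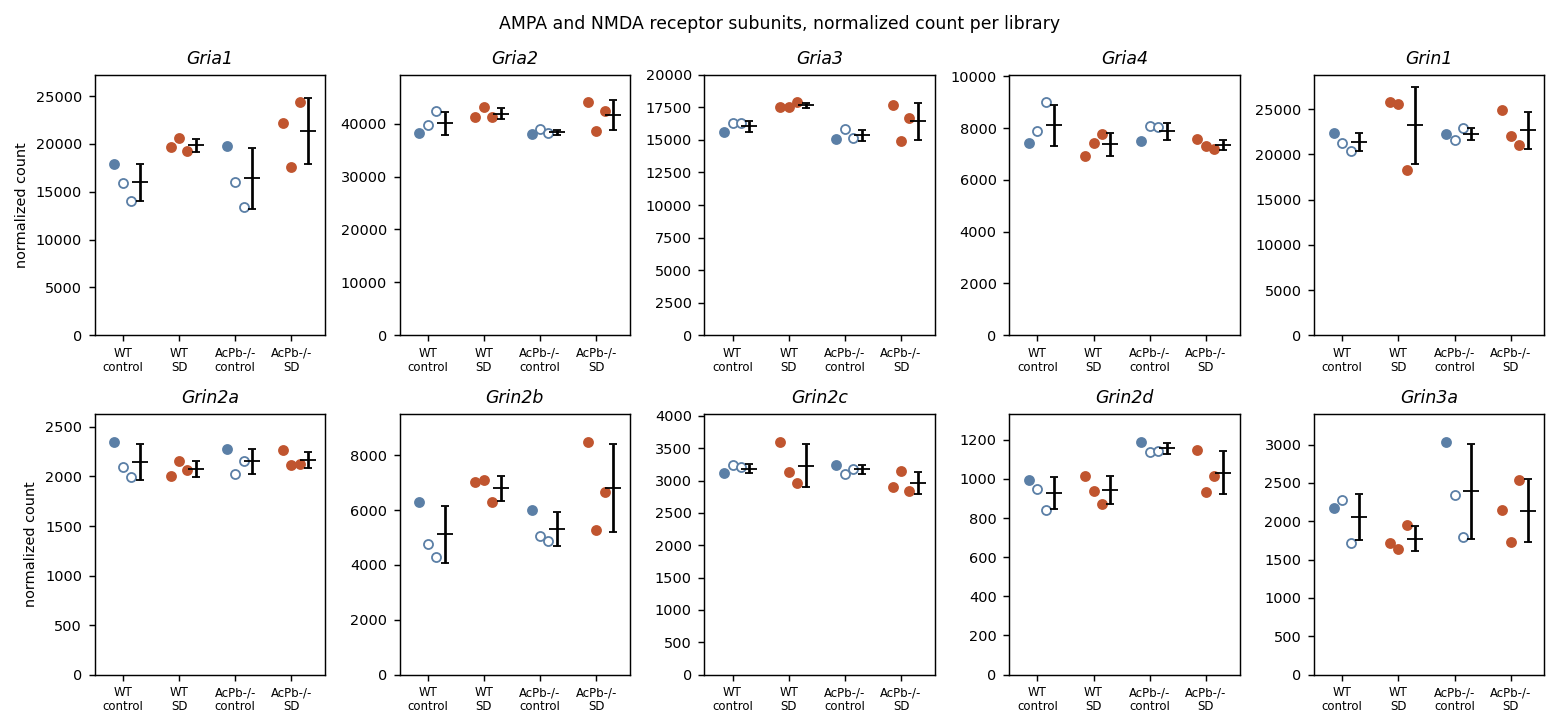
Normalized count of each subunit gene in each of the 12 libraries, on axes that start at 0. Open symbols are libraries with Xist reads, and bars are the mean and standard deviation of each group. For Gria1 and Grin2b the open controls lie below the filled ones.

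Of the NMDA subunits, Grin1 spread most within WT SD. It was at 22412, 21268 and 20396 in WT controls and 25735, 25546 and 18307 after SD, so replicate 04 lay below and the other SD libraries above every control. AcPb-/- libraries were at 22296, 21603 and 22924 and at 24939, 21981 and 21072 after SD. The differences were 0.10 ± 0.12 (adjusted p = 0.580) and 0.02 ± 0.076 (adjusted p = 0.838). Without WT SD replicate 04 the wild-type difference was 0.26 and passed (adjusted p = 0.00880).

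Grin2b, the subunit with slower channel closing, had the highest estimate in wild-type mice. WT controls were at 6294, 4758 and 4308 and SD libraries at 7012, 7117 and 6286. AcPb-/- controls were at 6013, 5071 and 4866 and SD libraries at 8498, 5285 and 6673. Control replicate 01 reached just above the lowest WT SD library, and in AcPb-/- mice 1 SD library lay among the controls. The log2 fold change was 0.43 ± 0.12 (adjusted p = 0.0252) in wild-type mice, a 1.34-fold level, 0.34 ± 0.16 (adjusted p = 0.145) in AcPb-/- mice and 0.38 ± 0.11 (adjusted p = 0.0158) over both. The wild-type call was lost without WT control 02 or 03 or WT SD 01 or 02, at 0.31 to 0.40 (adjusted p from 0.0772 to 0.102), and the AcPb-/- estimate passed without SD 03 (0.51, adjusted p = 0.0232).

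As for Gria1, the controls with Xist were the low ones for Grin2b, at 4308 to 5071, and the others were at 6013 and 6294. Without the 4 libraries the difference over both genotypes was 0.13 (adjusted p = 0.609). In AcPb-/- mice 0 of the 10 subunits passed by limma, where 27.4% of 20574 genes passed, and 0 by edgeR, 1 had an unadjusted p under 0.05 (38.9% of all genes), and DESeq2 passed 2, Gria1 and Grin2b. None of the 10 had groups without overlap there, against 42.3% of all genes.

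Grin2a, which takes over from Grin2b as cortex matures, had estimates near 0. Its counts were 2351, 2096 and 1998 in WT controls and 2000.2, 2160.2 and 2063 after SD, and 2274, 2027 and 2153.5 in AcPb-/- controls and 2263, 2116 and 2125.5 after SD. The groups overlapped throughout, with differences of -0.05 (95% interval -0.21 to 0.11) and 0.01 (-0.13 to 0.16).

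Grin2c, a subunit of astrocytes and cerebellum as well as neurons, was at 3110.2 to 3237 in WT controls and 2961 to 3601 after SD, and at 3102 to 3247 and 2836 to 3152 in AcPb-/- mice. Grin2d, found mainly in interneurons, was at 839 to 996 and 871 to 1013 in wild-type mice and at 1139 to 1189.8 and 931 to 1148 in AcPb-/- mice. Neither passed in any SD comparison, with adjusted p from 0.186 to 0.898 within genotypes. Grin2c and Grin2d have the most GC-rich transcripts of the 10, and when each library's trend of counts with GC content and length was removed both were higher after SD over both genotypes, at 0.23 (adjusted p = 0.000376) and 0.285 (adjusted p = 0.00334), against -0.04 and -0.07 without that step.

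Grin3a, which lowers the calcium entry of NMDA receptors, varied widely among the controls. It was at 2172, 2280.4 and 1712 in WT controls, 1718.5, 1639.9 and 1956.5 after SD, 3037, 2339.5 and 1791 in AcPb-/- controls and 2150.4, 1725 and 2539 after SD. Its group coefficients of variation ran from 9.31% to 26.1%, and no SD difference passed, at -0.21 (adjusted p = 0.188) and -0.14 (adjusted p = 0.634). Without WT control 03 the wild-type difference was -0.33 and passed (adjusted p = 0.0262).

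**Figure D3:**
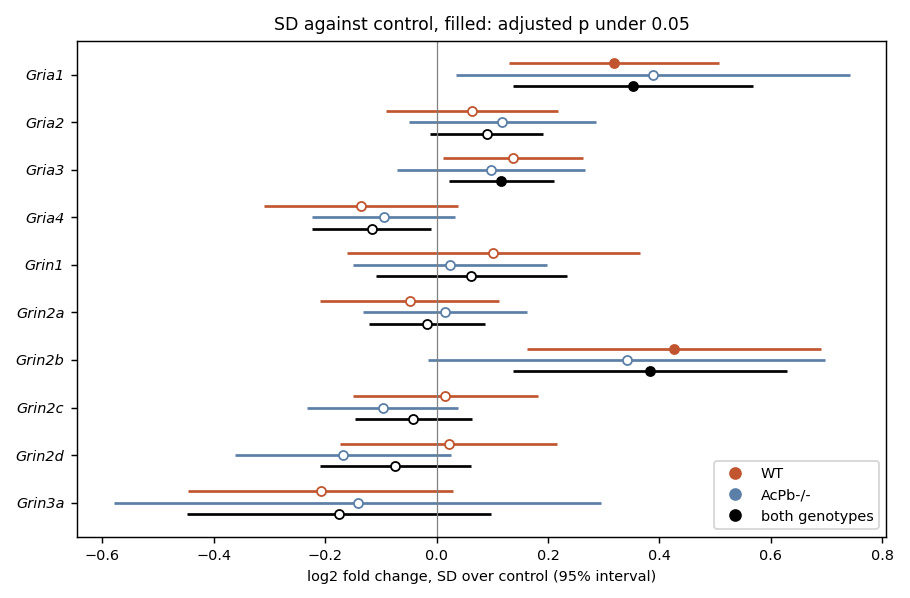
Log2 fold change of SD over control for each subunit gene in wild-type mice, AcPb-/- mice and both genotypes, with 95% intervals. Filled symbols have an adjusted p under 0.05, which holds for Gria1 and Grin2b in wild-type mice and for Gria1, Gria3 and Grin2b over both genotypes.

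Subunit composition was compared within each library as ratios of reads, which do not depend on the scaling between libraries. The Grin2a to Grin2b ratio was 0.373, 0.440 and 0.464 in WT controls and 0.285, 0.304 and 0.328 after SD, and 0.378, 0.4 and 0.443 in AcPb-/- controls and 0.266, 0.4 and 0.319 after SD. All WT SD libraries were below all WT controls, and in AcPb-/- mice 1 SD library lay among the controls. The mean log2 ratio differed by -0.40 after SD (exact permutation test within genotype, 12 libraries, 2-sided p = 0.015, 0.03 adjusted over the 2 ratios), where 0.005 is the smallest p the test allows. Without the 4 Xist libraries the difference was -0.26 (exact p = 0.25, with 0.0625 the smallest possible).

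The Gria1 to Gria2 ratio was 0.471, 0.401 and 0.332 in WT controls and 0.476, 0.478 and 0.467 after SD. For AcPb-/- mice it was 0.520, 0.413 and 0.350 in controls and 0.505, 0.455 and 0.574 after SD. The SD libraries were close together in wild-type mice, and the highest control of each genotype lay within the SD range. The mean log2 ratio was 0.26 higher after SD, with an exact permutation p of 0.05, 0.05 after adjustment, which did not fall under the threshold. It was 0.02 without WT control 01 (a difference of 0.32) and 0.015 without AcPb-/- control 03 (0.34), both by the exact test. Without the Xist libraries the difference was -0.01 (exact p = 0.812).

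**Figure D4:**
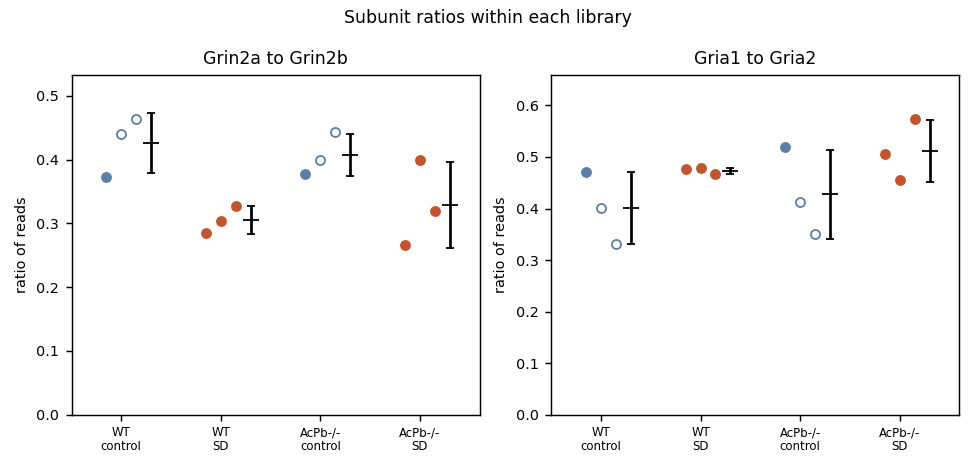
Ratio of reads within each library, for Grin2a to Grin2b and for Gria1 to Gria2, in the 4 groups. Open symbols are libraries with Xist reads, and bars are the mean and standard deviation. The Grin2a to Grin2b ratio of WT SD lies between 0.285 and 0.328, below the WT controls.

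Genotype was compared among controls and after SD. None of the 10 subunits passed in either, where 0.0197% of 20273 genes passed among controls and 0.0145% of 20621 after SD. By edgeR and DESeq2 0 of the 10 passed as well. Of all genes edgeR passed 4 among controls and 4 after SD, and DESeq2 93 and 97. Among controls 1 subunit, Grin2d, had an unadjusted p under 0.05, as did 8.53% of all genes. It was at 996, 946.5 and 839 in WT controls and 1189.8, 1139 and 1142 in AcPb-/- controls. These groups did not overlap, as for 14.4% of all genes, and the difference was 0.32 ± 0.077 (adjusted p = 0.339). After SD the difference was 0.13 ± 0.094 (adjusted p = 0.894), with the libraries overlapping. Grin3a had the largest estimate after SD, 0.26 ± 0.13 (adjusted p = 0.855), and no subunit had an unadjusted p under 0.05 there, against 6.13% of all genes.

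Whether the SD effect differed between the 2 genotypes was tested as the difference of the SD effects. By limma 0 of the 10 subunits passed, 0 had an unadjusted p under 0.05, and edgeR and DESeq2 passed 0. Of all 20978 genes 0% passed by limma, with 839 (4%) at an unadjusted p under 0.05, 0 by edgeR and 1 by DESeq2. The difference, AcPb-/- minus wild-type, was 0.07 for Gria1 (95% interval -0.36 to 0.50), -0.09 for Grin2b (-0.58 to 0.40) and -0.19 for Grin2d (-0.46 to 0.08). These intervals hold values as large as the SD effects themselves.

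Proteins that escort, anchor and modify the receptors were taken from lists of partner genes and compared over both genotypes. Of 17 AMPA receptor auxiliary and biogenesis genes, 7 rose and 3 fell. Cacng2 encodes stargazin, which carries AMPA receptors to the synapse, and was at 3375, 2935 and 3544 in WT controls and 5571, 6213 and 4899 after SD, and at 2933, 3081 and 3307 in AcPb-/- controls and 6185, 5011 and 5111 after SD. Each SD library was above every control. Cacng2 rose by 0.78 ± 0.072 (adjusted p = 5.55e-06), a 1.72-fold level, and without the Xist libraries by 0.80 (adjusted p = 0.0107).

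Shisa6, which keeps AMPA receptors from desensitizing, rose by 0.88 ± 0.16 (adjusted p = 0.000553). It was at 891 to 1367 in WT controls and 1735 to 1815 in WT SD libraries, and AcPb-/- libraries ranged from 819 to 1572 undisturbed and from 1847 to 2721 after SD. The controls with Xist were again the low ones, and without them the estimate was 0.41 (adjusted p = 0.0946). Prrt1, another auxiliary protein of AMPA receptors, rose by 0.78 ± 0.092 (adjusted p = 2.96e-05), and by 0.69 without the Xist libraries (adjusted p = 0.0363).

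Of 15 postsynaptic density scaffolds 8 rose and 1 fell. Homer1, a scaffold of the postsynaptic density, rose by 0.64 ± 0.077 (adjusted p = 3.33e-05), the Shank family scaffold Shank2 by 0.39 and Dlgap4 by 0.37. Gene counts pool isoforms, so they do not show which forms of Homer1 rose. Of 16 trafficking and clustering partners 7 rose and 1 fell. The one that fell was Nptxr, the receptor of the neuronal pentraxins that cluster AMPA receptors, at -2.47 ± 0.40 (adjusted p = 0.000277). Nptxr overlaps Npcd on the same strand in the annotation, so its count depends on how shared reads were assigned. Arc, an activity-induced gene whose product removes AMPA receptors from synapses, rose by 0.91 ± 0.32 (adjusted p = 0.0357), and Nptx1, a pentraxin, by 0.54 ± 0.073.

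Arc also differed between controls with and without Xist reads. It was at 5061 and 6445 in the 2 controls without Xist, at 11491 to 23206 in the 4 with Xist and at 20835 to 23700 in the 6 SD libraries. Without the 4 libraries the Arc difference was 1.96 (adjusted p = 0.00121), against 0.91 with them. The libraries with Xist therefore stood nearer to the SD libraries for Arc and farther from them for Gria1 and Grin2b.

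Of 18 kinases, phosphatases and exchange factors 4 rose and 4 fell. Akap5, which anchors kinases and phosphatases at both receptors, rose by 0.52 ± 0.071 (adjusted p = 7.98e-05), and Ptpn5, a phosphatase that acts on Grin2b, by 0.38. Camk2g fell by 0.38. Of 8 genes of RNA editing and co-agonist handling 1 rose and 3 fell. Srr, which makes the NMDA co-agonist D-serine, rose by 0.47 ± 0.064 (adjusted p = 8.10e-05), while Adarb1, the enzyme that edits Gria2 RNA, fell by 0.21 (adjusted p = 0.00714) and the glycine transporter Slc6a9 by 0.20. Without the Xist libraries Adarb1 was at -0.14 (adjusted p = 0.234) and Slc6a9 at -0.27 (adjusted p = 0.0717), and neither passed. Of 8 other ionotropic glutamate receptor subunits 2 rose and 1 fell, the kainate receptor genes Grik1 by 0.31 and Grik2 by 0.20 higher, and Grik5 lower at -0.42 ± 0.043 (adjusted p = 1.03e-05).

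The share of genes that passed was 58.8% in the auxiliary list, 60% among scaffolds, 50% among trafficking partners, 44.4% among kinases and phosphatases, 50% in editing and co-agonist handling and 37.5% among the other ionotropic subunits, beside 41.5% of all genes, 21.2% higher and 20.3% lower, and 56.6% of those with a mean of at least 100. Without the 4 Xist libraries the shares were 35.3%, 6.67%, 31.2%, 16.7%, 12.5% and 25%, beside 24.7% of all genes. Cacng2, Prrt1, Homer1, Nptxr, Arc, Nptx1, Akap5, Ptpn5, Srr and Grik5 passed in both. Shisa6, Shank2, Dlgap4, Camk2g, Adarb1, Slc6a9, Grik1 and Grik2 did not pass without them (adjusted p from 0.0555 to 0.234). The share of receptor subunits was 30% and then 0%, and with the GC and length trend removed 7 of the 10 passed, 5 higher and 2 lower, where 8649 of 20978 genes did.

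**Figure D5:**
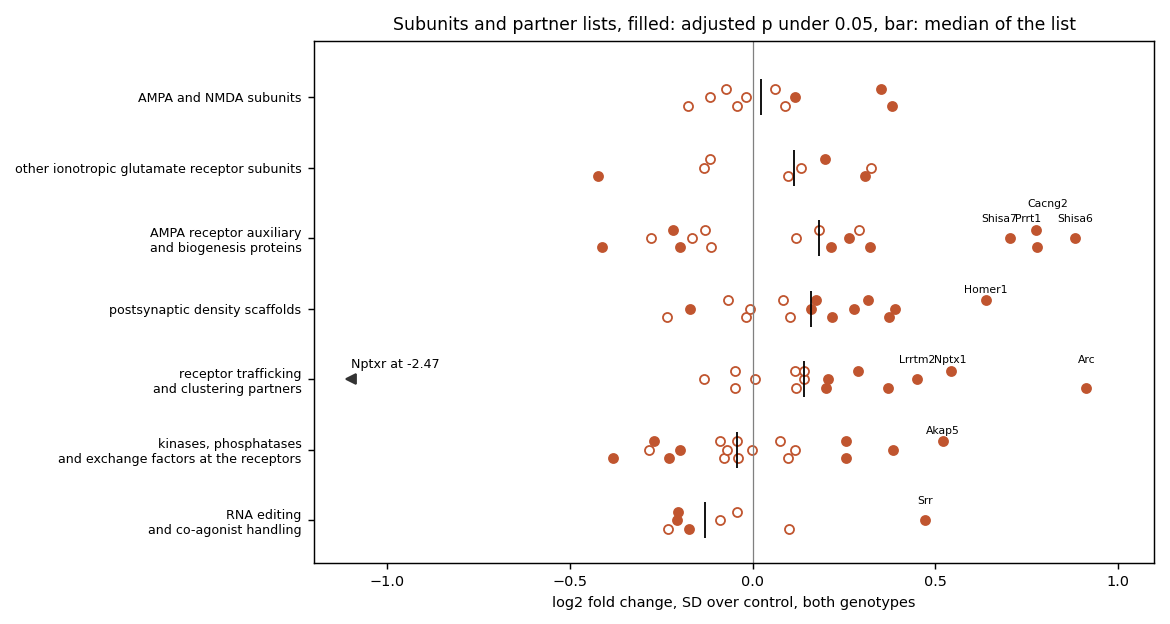
Log2 fold change of SD over control, both genotypes, for the 10 subunit genes and the 6 lists of partner genes. Each point is a gene, filled where the adjusted p is under 0.05, and the black bar is the median of the list. The subunits lie between -0.18 and 0.38, and Shisa6, Cacng2, Prrt1 and Arc lie between 0.78 and 0.91.

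Marker genes of cell types and cortical layers were measured beside these results. Summed over 8 excitatory neuron markers the range was 90235 to 98485 normalized counts in WT controls, 78541 to 90696 in WT SD. In AcPb-/- mice it was 100104 to 104862 undisturbed and 89322 to 94140 after SD. Slc17a7 alone was at 58878 to 68806 in WT controls and 50183 to 57769 in WT SD, so this gene made up most of the sum. Over both genotypes 3 of these 8 markers rose and 3 fell. Neurod6 rose by 1.02 and the deep-layer marker Fezf2 by 0.59, while Rorb, a layer 4 marker, fell by 0.56 and the vesicular glutamate transporter Slc17a7 by 0.23. The 7 interneuron markers summed to between 40887 and 47387 and the 6 astrocyte markers to between 51023 and 59814 over all groups, and 6 striatal neuron markers to between 7428 and 13476. Over both genotypes 3 of the 6 astrocyte markers, 1 of 5 oligodendrocyte markers and 2 of 4 microglia markers fell, and in wild-type mice 3 of the 5 oligodendrocyte markers. Of the 7 interneuron markers 3 rose and 1 fell over both genotypes. In wild-type mice 2 of the 6 striatal markers fell, Drd1 at -0.61 and Adora2a at -1.81, while over both genotypes 0 of the 6 passed. Drd1 was at 449 to 714 normalized counts in WT controls and 340 to 430 after SD. Adora2a was at 814, 489 and 99.5 in WT controls and 94.0 to 101.2 after SD, so control 03 lay within the SD range. Over both genotypes 41.5% of all genes passed, and 56.6% of those with a mean of at least 100. In wild-type mice these shares were 25.4% and 35.2%. Without the Xist libraries 24.7% of all genes passed over both genotypes. Then 1 of 6 astrocyte, 2 of 5 oligodendrocyte, 1 of 4 microglia and 1 of 6 striatal markers fell. Of the excitatory markers 1 rose and 1 fell, and of the interneuron markers 3 rose and 2 fell. The oligodendrocyte sum ran from 48839 in an AcPb-/- control to 124730 in a WT control. The microglia sum was 7259 to 9098 in AcPb-/- SD and 9898.7 to 11068 in AcPb-/- controls. Every listed marker had a read in at least 1 library of each group. The cerebellar granule cell gene Gabra6 had 0 or 1 reads in every library except AcPb-/- SD replicate 04, with 18. The part of these cell types in the subunit results was not tested.

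After removal of the group means, library by library, Gria1 varied with Fezf2 (Pearson r = 0.867 over the 12 libraries), the striatal receptor gene Drd1 (0.792) and inversely with Rorb (-0.827) and the interneuron gene Gad1 (-0.767). Of the other 4 markers compared, Cux2 gave -0.643, Slc17a7 0.585, the astrocyte gene Aqp4 -0.165 and Tbr1, a deep-layer marker like Fezf2, 0.017. Grin3a had 0.844 with Fezf2, 0.869 with Drd1, -0.858 with Rorb, -0.782 with Gad1 and -0.273 with Tbr1. For Grin2b the 8 values ran from -0.432 with Gad1 to 0.592 with Fezf2. These values describe 12 libraries that share tissue and preparation and carry no test. Without the Xist libraries the estimates over both genotypes were smaller for Rorb (-0.30 against -0.56) and Fezf2 (0.31 against 0.59), as for Gria1 and Grin2b. The excitatory markers Neurod6 (1.0034 against 1.022) and Slc17a7 (-0.33 against -0.23) did not shrink in this way. The part of layer or region content in the subunit results was not tested.

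Among the subunits themselves, the same deviations from group means gave r = 0.891 between Gria1 and Grin3a, 0.884 between Grin2b and Grin2d, 0.831 between Gria2 and Gria3, 0.773 between Grin2a and Grin2b and 0.763 between Gria1 and Grin2b. Gria4 was negatively related to Gria1 (-0.54) and Grin2d (-0.61). Of 13121 genes with a mean of at least 100, those whose deviations were most like a subunit's over the 12 libraries were Pcdh17 and Cacna1e for Gria1 (r = 0.977 and 0.975), Ntrk2 and Pdzd2 for Grin2b (0.977 and 0.971), Syn1 and Peli2 for Grin1 (0.984 in each) and Ptpre and Slc25a22 for Grin3a (0.982 and 0.981). For the other 6 subunits the highest r was between 0.916 and 0.975. These are the highest of 13121 values each and carry no test.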

How the data were processed

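RNA-seq of somatosensory cortex was analysed in 12 libraries, 3 per group. The authors aligned reads to mm10 with HISAT2 2.2.1 and counted them per gene. The study names HTSeq, the submitters' processing notes featureCounts, and the annotation and strand setting are not given in the sources used here. The library kit was stranded. The labels give QIAzol and the study TRIzol for RNA extraction. The deposited signal is the read count divided by a DESeq2 size factor (the notes list DESeq2 1.31.16), in 5 tables of group pairs. Multiplied back, 100.0% of 732630 values lay within 0.01 of a whole read. The tables also hold the authors' fold changes and p-values, which were not used. The members and lists were chosen with earlier results of these data known.

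Groups followed the labels, and no column was left unmapped. The study's test was DESeq2. Because the deposited values are normalized, log2(value + 1) of each table was tested with limma 3.58.1 (trend) in R 4.3.3, with Benjamini-Hochberg adjustment over all genes with a read, and fold changes are on that scale. A joint fit of the 12 libraries gave the effect over both genotypes and the difference of effects, on median-of-ratios values, which are also the printed normalized counts. Labels give separate mice. Alternatives were edgeR 4.0.16 and DESeq2 1.42.0 on recovered reads, TMM scaling, a mean of at least 10, a pseudocount of 10, thinning, removal of GC and length trends, a replicate block, a single fit of all groups, an Xist term, leaving out each library and, chosen after seeing the data, leaving out the 4 libraries with Xist reads and the longest transcript as length. Scripts were tested on simulated data. All 10 subunits were named, and from each partner list at most 3 genes past the threshold with the largest change. Exon lengths came from GENCODE M21, which matched 23334 genes (95.5%). Pore sequences are printed for 6 of the 10 subunits, and the others are not reported here.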

Additional observations from a re-analysis of the deposited data

How the results depend on the processing

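Counts of subunits past the threshold are given here, with the share over all genes for some settings only. That share also moves with the setting, so the counts alone are not a result about the subunits. In wild-type mice the number was 2 of 10, where 25.4% of all genes passed. It was 4 with the GC and length trend removed and 0 with the replicate block or all 4 groups in one fit. With a term for Xist and without the Xist libraries it was also 0. Leaving out single libraries gave 0 to 3 (0 without WT control 02, WT SD 01 or WT SD 02, 1 without WT control 03, 3 without WT SD 04). In AcPb-/- mice the number was 0, where 5633 of 20574 genes passed, and 2 with DESeq2, where 5804 genes passed. It was 3 with the GC and length trend removed and 0 to 2 without single libraries (1 without control 03, 2 without SD 03). Over both genotypes, where 41.5% of all genes passed, it was 3, against 7 with the GC and length trend removed and 0 with the block. With the Xist term and with the Xist libraries left out it was also 0, where 30.8% and 24.7% of all genes passed. With the block Gria1 was at 0.24 (adjusted p = 0.114) and Grin2b at 0.29 (adjusted p = 0.0795). Gria1 and Grin2b passed in 19 of 22 alternatives over both genotypes, Gria3 in 6. The block used replicate numbers, and deviations of same-numbered libraries correlated at -0.141 to 0.102 in the SD comparisons, so the numbers were not taken as pairs. No paired analysis was possible for the genotype comparison among controls, because those groups share 1 number only.

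The Grin2a to Grin2b ratio differed by -0.475 in wild-type libraries alone (exact p = 0.1, the smallest possible), -0.326 in AcPb-/- libraries (exact p = 0.3) and -0.258 without the Xist libraries (exact p = 0.25), and by -0.477 to -0.330 without single libraries. The Gria1 to Gria2 ratio gave -0.0108 without the Xist libraries (exact p = 0.8125) and 0.195 to 0.338 without single libraries, passing at 0.324 without WT control 01 and 0.338 without AcPb-/- control 03.

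Estimates also changed sign. In wild-type mice Grin2d gave -0.0513 with the Xist term, -0.0844 without the Xist libraries, and -0.0472 to 0.0771 without single libraries. There Grin2a ranged from -0.0979 to 0.018 and Grin2c from -0.0640 to 0.0769. In AcPb-/- mice removal of the GC and length trend gave Gria2 -0.0567, Gria3 -0.0425, Grin2a -0.156, Grin2c 0.232 and Grin2d 0.270, and over both genotypes Grin2c 0.226 and Grin2d 0.285. Within AcPb-/- mice Grin1 gave -0.0264 with the block, -0.0145 with the Xist term and -0.0473 to 0.0751 without single libraries. For the same mice Grin2a gave -0.000717 with edgeR, -0.0157 with the block, -0.0953 with the Xist term and -0.0694 without the Xist libraries. Without single libraries Grin2a gave -0.0270 to 0.0551, and Grin3a -0.333 to 0.0473. The difference of effects for Gria1 was -0.0735 with the block, -0.0455 without the Xist libraries and -0.0708 to 0.209 without single libraries, and for Grin2b 0.0439 without the Xist libraries and -0.261 to 0.0811 without single libraries. The cause was not tested.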
